A study of Mus musculus with 65 samples.

Results

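Chromatin accessibility was followed at 10 genes of the primitive endoderm, Gata6, Gata4, Sox17, Sox7, Foxa2, Dab2, Lama1, Lamb1, Lamc1 and Col4a1, on DNA that mouse embryonic stem cells had just replicated. The genes were chosen by name, with earlier results of these data known. They are 10 of the 19009 protein-coding genes that could be paired with a transcription start site (TSS) in the deposited TSS regions. Each was read in the 1 kb window at its TSS, in peaks within 20 kb of that TSS on build mm10, and in a 5 kb region of a spike-in experiment. The study used repli-ATAC-seq: cells took up the thymidine analog EdU at 20 uM for 10 min, open chromatin was cut by the Tn5 transposase, and fragments carrying EdU were tied to biotin and pulled down on streptavidin. Cells were collected at once (nascent DNA) or after a chase in 10 uM thymidine (mature DNA). Reads left in the supernatant of the pulldown, called unbound here, come from the bulk of the chromatin, which was not labelled.

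All cells were E14TG2a, a 129/Ola embryonic stem cell line, kept in serum and LIF on gelatin. Before EdU, cells had 2 h of triptolide, DRB or the solvent DMSO, and each drug had a nascent and a 2 h collection, with 3 EdU and 3 unbound libraries for each of these 6 groups. Triptolide blocks transcription initiation by RNA polymerase II and DRB blocks its release into elongation. Neither the doses nor the presence of a drug in the chase medium are stated in the labels. A time series without drugs had nascent, 30 min, 1 h and 2 h cells and untreated steady-state cells, with 3 samples each merged into 1 peak list. A spike-in experiment had 2 libraries at 2 h and 2 nascent libraries, each mixed with 100 EdU-labelled Drosophila S2 cells, and a list of RNA polymerase II S5P peaks came from 2 ChIP samples. S5P is the phosphorylated form of the polymerase found near promoters. No label states that replicates came from separate cultures, and the spread behind every p-value is that of these libraries and may be technical.

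The primitive endoderm is the layer of the blastocyst that lines the epiblast and later forms the yolk sac endoderm. FGF signalling through ERK turns on GATA6, which opposes the epiblast factor NANOG, and SOX17, GATA4, SOX7 and FOXA2 follow. The cells then lay down a basement membrane of laminin and collagen IV. Stem cells in serum and LIF are an epiblast-like population in which the factors of this programme are mostly low. In a mixed population, fewer cells with an open site and a less open site in every cell cannot be told apart.

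The TSS windows were checked against cell type markers. In nascent DMSO unbound DNA, the 8 stem cell markers had a median of 9.23 RPM (reads per M mapped), from 1.25 RPM at Esrrb to 14.3 RPM at Zfp42. The 7 primitive endoderm markers had a median of 1.91 RPM, with the lowest at Dab2 and the highest at Gata6. Both are members, and the median equals the level at Foxa2, also a member. In EdU DNA the medians given below equal the levels at Sox7 at 2 h and at Foxa2 in nascent cells. This marker list thus overlaps the genes under study in at least these members and is no separate check on them. These markers do not include the laminin and collagen genes, and the median over all 10 members was 5.14 RPM, beside 4.1 RPM over coding genes. The 6 trophectoderm markers had a median of 4.15 RPM and the 5 fibroblast markers 2.58 RPM, with Vim at 13.8 RPM. In EdU DNA the medians at 2 h and in nascent DMSO cells were 9.09 and 3.12 RPM for stem cell, 2.12 and 0.617 RPM for primitive endoderm, 3.44 and 1.85 RPM for trophectoderm and 2.74 and 0.961 RPM for fibroblast markers, so all 4 lists were higher at 2 h. Dab2 was the 1 marker at 0, in nascent EdU DNA. EdU libraries held 1.30 to 5.55 M reads and unbound libraries 2.35 to 14.4 M. At the shallowest EdU library a window with 1 read has 0.77 RPM, so the low members rest on few reads.

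RefSeq promoter sequences of GRCm38.p6 were at hand for 4 of the 10 genes and are shown as 300 bases, 250 before and 50 after the start, read 5′ to 3′ along the gene, with CG dinucleotides in capitals. Dab2 is shown at both of its starts because the accessibility of the gene turned on which start was read. Foxa2, Lamb1 and Col4a1 are shown because they are the other genes with a sequence at hand. In order, the intervals are chr15:6299539-6299838 and chr15:6386498-6386797 on the plus strand for Dab2, chr12:31265043-31265342 on the plus strand for Lamb1, chr8:11312777-11313076 on the minus strand for Col4a1 and chr2:148046920-148047219 on the minus strand for the Foxa2 start whose window was tested. The other RefSeq starts of Foxa2, within the gene, are not shown.
Dab2 first start: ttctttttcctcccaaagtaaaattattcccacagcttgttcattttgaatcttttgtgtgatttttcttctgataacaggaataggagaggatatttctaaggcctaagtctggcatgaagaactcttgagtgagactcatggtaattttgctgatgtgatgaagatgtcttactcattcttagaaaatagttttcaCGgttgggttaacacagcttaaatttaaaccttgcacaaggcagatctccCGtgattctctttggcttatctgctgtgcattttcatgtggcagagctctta
Dab2 second start: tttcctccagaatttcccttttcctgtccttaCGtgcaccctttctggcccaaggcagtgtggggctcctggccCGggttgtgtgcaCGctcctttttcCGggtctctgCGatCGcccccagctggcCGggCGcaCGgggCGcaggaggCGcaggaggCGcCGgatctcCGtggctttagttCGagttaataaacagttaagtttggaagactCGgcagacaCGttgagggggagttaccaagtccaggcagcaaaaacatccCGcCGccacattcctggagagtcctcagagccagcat
Lamb1: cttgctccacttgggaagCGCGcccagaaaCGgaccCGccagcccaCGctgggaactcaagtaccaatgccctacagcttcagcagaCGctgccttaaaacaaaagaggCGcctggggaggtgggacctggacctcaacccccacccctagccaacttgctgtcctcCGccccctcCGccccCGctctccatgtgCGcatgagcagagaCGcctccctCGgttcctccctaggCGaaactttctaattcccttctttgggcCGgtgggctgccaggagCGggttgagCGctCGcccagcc
Col4a1: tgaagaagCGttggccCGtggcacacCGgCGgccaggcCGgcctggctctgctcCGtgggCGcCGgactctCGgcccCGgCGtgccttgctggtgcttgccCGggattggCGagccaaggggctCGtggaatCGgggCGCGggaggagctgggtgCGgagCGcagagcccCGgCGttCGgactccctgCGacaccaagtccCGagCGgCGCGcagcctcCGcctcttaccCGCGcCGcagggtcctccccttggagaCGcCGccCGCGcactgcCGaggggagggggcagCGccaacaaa
Foxa2: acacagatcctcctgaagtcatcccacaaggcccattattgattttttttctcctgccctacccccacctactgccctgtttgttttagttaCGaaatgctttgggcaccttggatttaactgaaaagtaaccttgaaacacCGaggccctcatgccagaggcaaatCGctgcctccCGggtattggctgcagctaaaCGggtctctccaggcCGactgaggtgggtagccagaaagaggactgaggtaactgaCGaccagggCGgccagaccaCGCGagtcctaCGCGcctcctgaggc
The first Dab2 start held 2 CG dinucleotides and the second 19, against a median of 7 over the 32851 promoters of the table. The tested Foxa2 start held 12, Lamb1 18 and Col4a1 37, the last above 94.4% of the table. The Foxa2 starts not shown held 23 and 13. The GC box GGGCGG, searched on both strands, was in the Lamb1, Col4a1 and Foxa2 sequences and in neither of Dab2, and was found in 35.7% of all promoters. GATAAG, a form of the GATA motif, was in the first Dab2 promoter only and in 7.44% of all promoters. ACAATG, a form of the SOX motif, was in none of the sequences and in 12.6% of all promoters. CCAAT was in the Lamb1, Col4a1 and Foxa2 sequences and in 37.4% of all promoters. TATAAA was in none of those shown, in 1 Foxa2 start not shown and in 13.6% of all promoters.

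In bulk chromatin the basement membrane genes were the most open members and Dab2 the least. Lamc1, which encodes the gamma chain of laminin-111, had 19.3, 15.3 and 13 RPM in nascent DMSO unbound DNA (window chr1:153332501-153333500). This placed it above 95% of coding genes. Lamb1, the beta chain (chr12:31264501-31265500), had 10.2, 8.93 and 10.3 RPM, and Lama1, the alpha chain (chr17:67697001-67698000), had 10.8, 9.36 and 8.84 RPM. These 2 did not differ beyond their spread. Col4a1, a collagen IV chain, had 7.03, 10.6 and 6.63 RPM in a window it shares with the divergent Col4a2 (chr8:11312501-11313500), so reads there belong to both genes.

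Among the transcription factors, Gata6, which starts the primitive endoderm programme, had 6.88, 4.68 and 4.75 RPM in the same libraries (chr18:11052001-11053000). Sox17, an endoderm HMG-box factor, had 4.93, 5.95 and 3.68 RPM at a TSS 1013 bp inside the RefSeq gene (chr1:4496001-4497000). Sox7, its relative, had 2.99, 3.4 and 3.11 RPM (chr14:63943001-63944000). Gata6 and Sox17 overlapped in level, and both lay above Sox7 in every library. Foxa2, a forkhead factor of endoderm, had 2.99, 1.28 and 1.47 RPM (chr2:148046501-148047500). Gata4, a partner of GATA6, had 0.448, 0 and 0.409 RPM (chr14:63271001-63272000). Dab2, an endocytic adaptor that primitive endoderm cells need for their place and polarity, had 0.149, 0.425 and 0.164 RPM (chr15:6299501-6300500). Gata4 and Dab2 therefore stood at 3 reads or fewer in most libraries, and no fold is given for them.

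**Figure D1:**
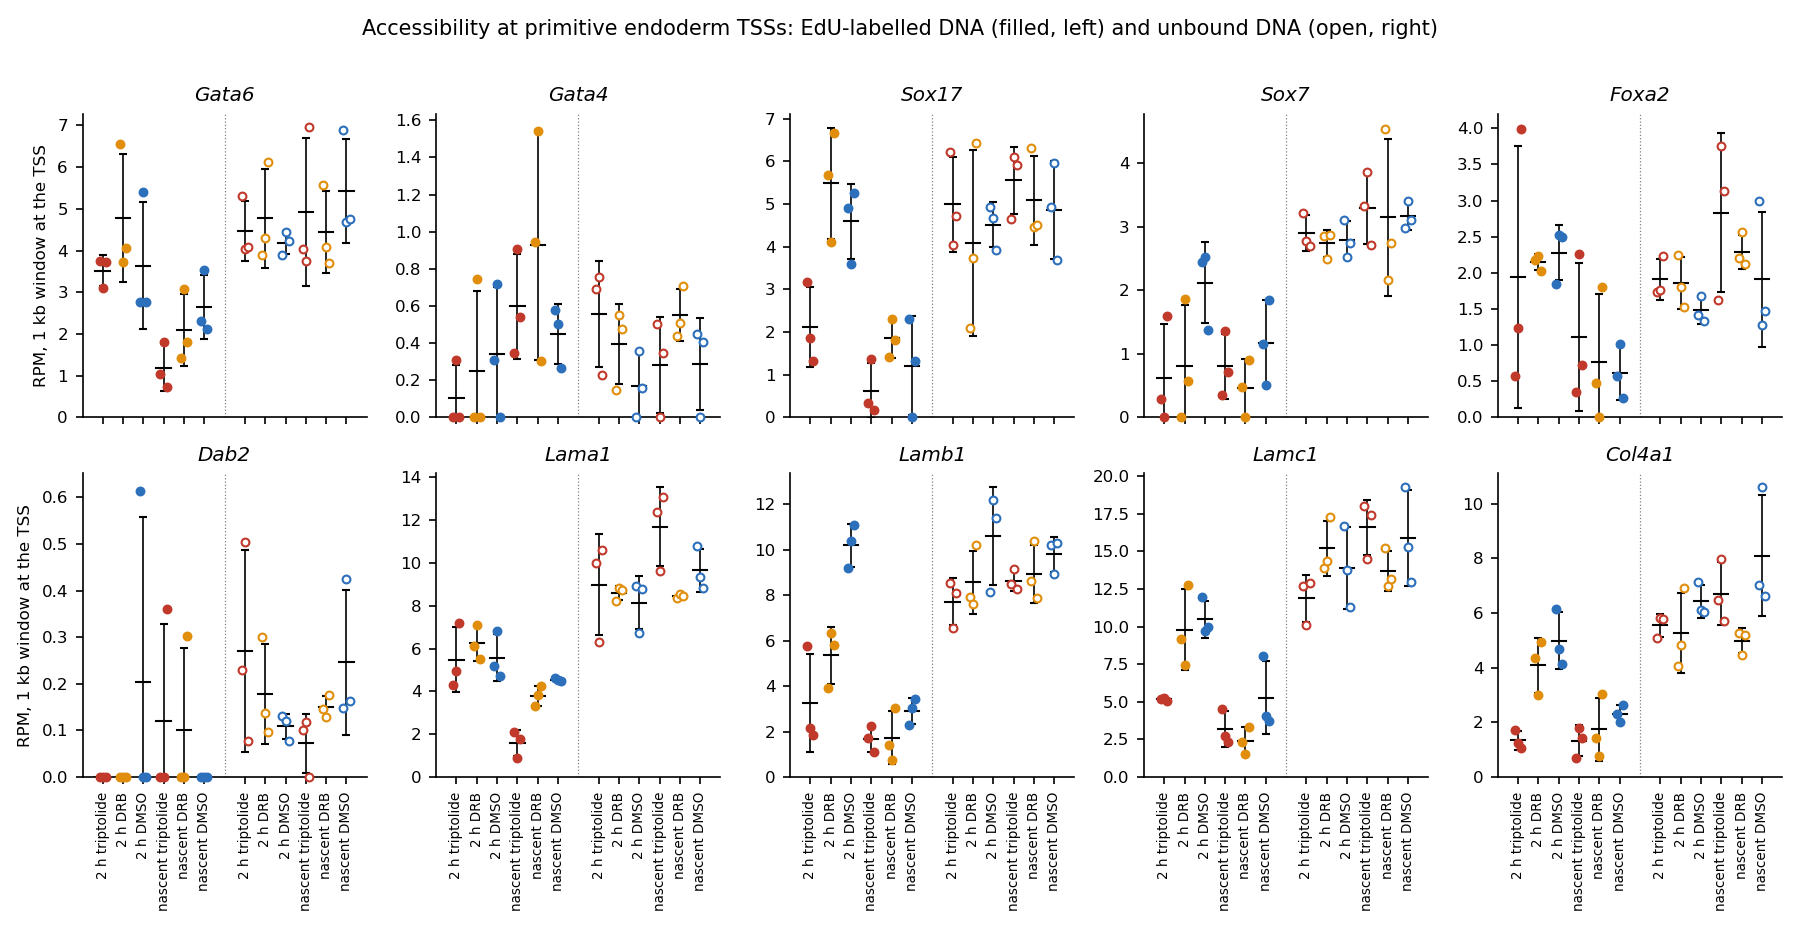
RPM in the 1 kb window at each TSS, 1 panel per gene, for the 6 groups in EdU-labelled DNA (filled points, left) and unbound DNA (open points, right), with triptolide in red, DRB in orange and DMSO in blue. Points are libraries, horizontal bars are means and error bars are SD (n = 3). Lamb1 at 2 h in DMSO lay at 9.2 to 11.1 RPM in EdU DNA, above all other EdU groups, while Dab2 had no read in most EdU libraries.

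During the 2 h chase without drug, accessibility rose at 5 of the 10 TSSs and fell at none, against 31.2% of all 29799 TSSs tested higher and 1.64% lower. The 5 were 2 of the 3 laminin chains, the collagen chain and the factors Sox17 and Foxa2. Differences are in mean log2(RPM + 1), which understates changes of low windows, and were tested with limma with Benjamini-Hochberg adjustment over all TSSs at a threshold of 0.05. The median difference was 0.69 over the 10 members and 0.34 over all TSSs.

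Lamb1 had 9.2, 10.4 and 11.1 RPM at 2 h and 2.31, 3.03 and 3.44 RPM in nascent DNA. The difference was 1.52 ± 0.32 (SE, n = 3 each, limma adjusted p = 5.9e-05). No 2 h library came near a nascent one. Sox17 had 4.9, 3.6 and 5.25 RPM at 2 h and 2.31, 0 and 1.32 RPM in nascent DNA, a difference of 1.49 ± 0.36 (limma adjusted p = 0.0004). Its nascent libraries ranged widely and 1 had no read, yet all stayed below the 2 h libraries. Lamc1 had 12, 9.71 and 9.96 RPM at 2 h and 8.07, 4.04 and 3.7 RPM in nascent DNA, a difference of 0.94 ± 0.30 (limma adjusted p = 0.0079). Foxa2 had 1.84, 2.52 and 2.49 RPM at 2 h and 0.577, 1.01 and 0.265 RPM in nascent DNA, which is 6, 7 and 9 reads against 1, 2 and 1. Its difference was 1.04 ± 0.39 (limma adjusted p = 0.03). Col4a1 had 6.13, 4.68 and 4.15 RPM at 2 h and 2.31, 2.02 and 2.65 RPM in nascent DNA, a difference of 0.84 ± 0.34 (limma adjusted p = 0.047). In all 5 genes the groups did not overlap. That was also so at Lama1, which was not called, and the share of all TSSs without overlap is not given here.

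The other 5 TSSs did not pass the test. Gata6 had 2.76, 5.4 and 2.77 RPM at 2 h and 2.31, 3.53 and 2.12 RPM in nascent DNA (0.32 ± 0.33), and the groups overlapped. Lama1 had 5.21, 6.83 and 4.7 RPM at 2 h and 4.61, 4.54 and 4.5 RPM in nascent DNA (0.23 ± 0.30). Its nascent libraries were close together and just below the lowest 2 h library. Sox7 had 2.45, 2.52 and 1.38 RPM at 2 h and 1.15, 0.505 and 1.85 RPM in nascent DNA (0.55 ± 0.39, overlapping). Gata4 had 0.307, 0.719 and 0 RPM at 2 h and 0.577, 0.505 and 0.265 RPM in nascent DNA. Dab2 had 0.613, 0 and 0 RPM at 2 h and no read in nascent DNA.

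The calls differed in how far they held. Those of Lamb1 and Sox17 held under all 9 alternatives of scaling, filter, window and test and without any 1 library. The Lamc1 call was lost without nascent DMSO replicate 3 (limma adjusted p = 0.066). The Foxa2 call was lost without nascent DMSO replicate 1 (adjusted p = 0.059) or 3 (0.12) and without 2 h DMSO replicate 2 (0.084) or 3 (0.079), and the Col4a1 call was lost without any 1 of the 6 libraries (0.057 to 0.18). The count was 3 without nascent DMSO replicate 1, 2 h DMSO replicate 2 or 2 h DMSO replicate 3, and 2 without nascent DMSO replicate 3. Scaling changed the calls too: after each library was centred on its median TSS window, the median over all TSSs was -0.08, the split of all TSSs was 4742 higher and 4186 lower in place of 9303 and 489, only Lamb1 and Sox17 were called among members, and Gata6 and Lama1 had differences of -0.10 and -0.18. Libraries were also scaled to background windows, which lay at least 1000 bp from every peak of the nascent to steady-state lists. TSSs without a peak were not excluded from these windows. The median over all TSSs was then 0.71 and 8 members were called higher, with Gata6, Sox7 and Lama1 added. With the mean over 5 kb in place of 1 window, Gata6 (0.58, adjusted p = 0.007) and Lama1 (0.66, adjusted p = 0.0018) passed.

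Dab2 differed between its starts. In the window of its second RefSeq start (chr15:6386001-6387000), which holds the promoter with 19 CG dinucleotides shown above, EdU DNA had 7.36, 7.55 and 6.08 RPM at 2 h and 0.577, 1.51 and 1.32 RPM in nascent DNA. The steady-state peak on it, chr15:6386251-6387025, lies 86.8 kb downstream of the first start, within the gene, and rose by 1.93 ± 0.35 (limma adjusted p = 1e-06 over 166636 peak windows). Its groups did not overlap. The window of the next Foxa2 start (chr2:148045501-148046500) had 4.6, 5.4 and 7.47 RPM at 2 h and 1.73, 3.53 and 2.12 RPM in nascent DNA, higher than at the tested start in each group. That of the third start (chr2:148045001-148046000), which overlaps it, had 3.68, 2.88 and 3.6 RPM at 2 h and 2.31, 1.01 and 1.85 RPM in nascent DNA. At the RefSeq start of Sox17, in a peak 0.9 kb upstream of the deposited TSS, EdU DNA had 3.37, 2.88 and 4.15 RPM at 2 h and 1.15, 1.01 and 1.59 RPM in nascent DNA (0.99 ± 0.36, limma adjusted p = 0.024). The groups did not overlap, but the call was lost without nascent DMSO replicate 1 (0.056) or 2 (0.07) and without 2 h DMSO replicate 1 (0.056) or 3 (0.091). These windows were chosen after the values at the tested TSSs were known.

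**Figure D2:**
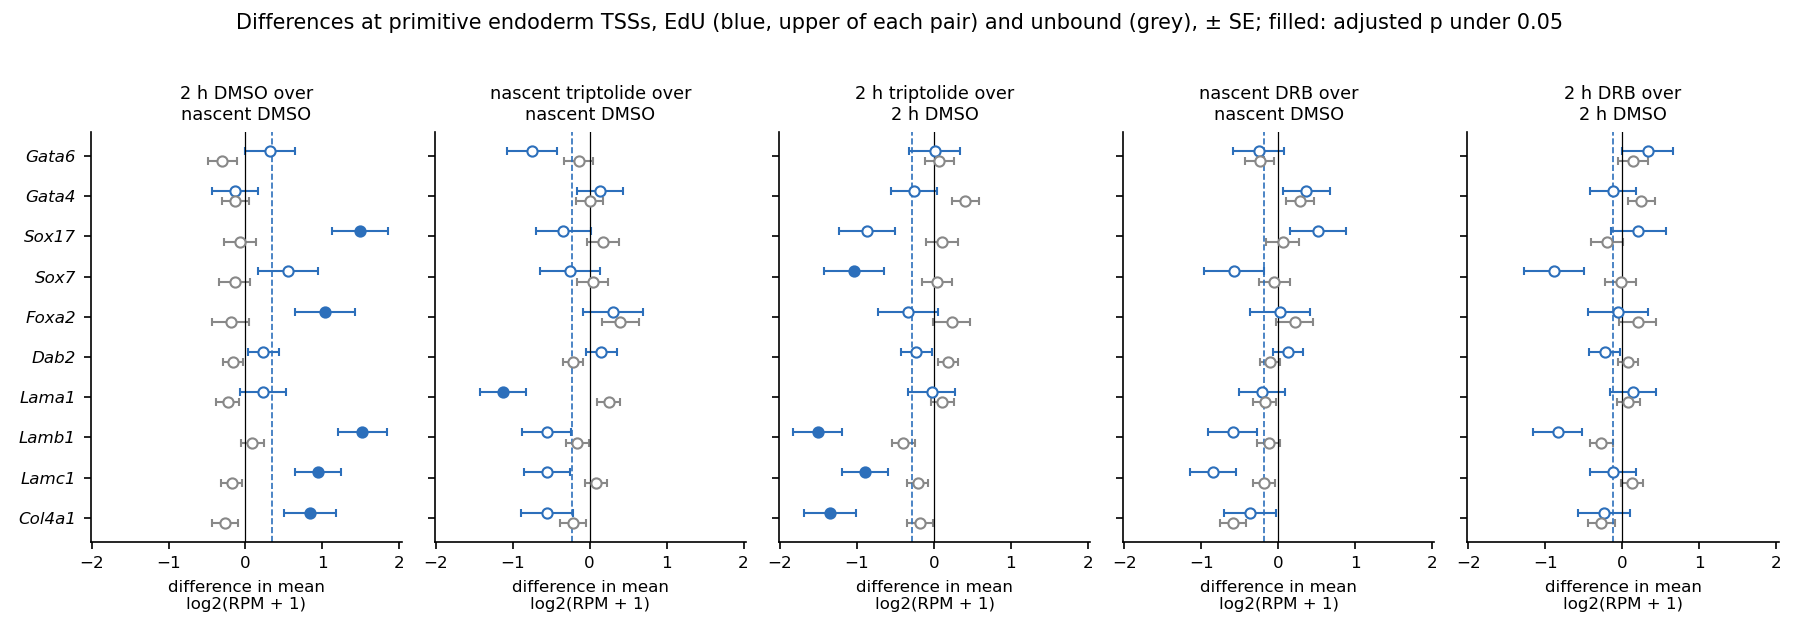
Differences in mean log2(RPM + 1) at the 10 TSSs for 5 comparisons, in EdU DNA (blue, upper point of each pair) and unbound DNA (grey), with SE from limma (n = 3 libraries per group). Filled points passed an adjusted p of 0.05 and the dashed blue line is the median over all TSSs in EdU DNA. All filled points are in EdU DNA: 5 in 2 h over nascent DMSO, 1 in nascent triptolide and 4 in 2 h triptolide.

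Set against bulk chromatin, the nascent DNA of 8 of the 10 TSSs was less open, and the exceptions were Gata4 and Dab2. In nascent DMSO cells, 43.2% of all TSSs were lower in EdU than in unbound DNA and 4.37% higher. Nascent EdU levels as a percentage of the unbound mean were 24.9% at Sox17, 28.6% at Col4a1, 29.8% at Lamb1, 32.3% at Foxa2, 33.1% at Lamc1 and 36.9% at Sox7. Lama1 stood at 47.2% and Gata6 at 48.8%, the 2 highest of the 8. The differences ran from -1.55 ± 0.31 at Sox17 (limma adjusted p = 3.2e-05) to -0.82 ± 0.26 at Gata6 (0.0069). After 2 h in DMSO none of the 10 was called different from unbound DNA by limma, with 1 lower at an unadjusted p under 0.05, 0 with limma-voom and 0% of all TSSs called either way. The percentages were then 68.5% at Lama1, 75.5% at Lamc1, 76.0% at Sox7, 77.6% at Col4a1, 86.9% at Gata6, 96.2% at Lamb1, 102% at Sox17 and 154% at Foxa2.

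The nascent gap to bulk was also called at these 8 TSSs after triptolide, where 49.7% of all TSSs were lower and 4.09% higher, and after DRB, where 48.5% were lower and 4.1% higher. Lama1 was at 13.7% of the unbound level in nascent triptolide cells and at 44.9% in nascent DRB cells. Sox17 was at 11.3% and 36.3%. After centring, 4 members were lower and 1 higher in nascent DMSO cells, and the split of all TSSs was 8675 higher and 8777 lower, in place of 1332 and 13163. Without EdU nascent DMSO replicate 2 the Sox7 call in nascent DMSO was lost (adjusted p = 0.085), and without unbound nascent DMSO replicate 1 so were those of Gata6 (0.058) and Foxa2 (0.23). The Foxa2 call was also lost without EdU nascent DMSO replicate 1 (0.075) or 3 (0.16). In nascent triptolide cells Foxa2 was not called without EdU replicate 1 (0.15) or 3 (0.068) or unbound replicate 2 (0.11) or 3 (0.065), and in nascent DRB cells without EdU replicate 2 (0.11). After centring the splits of all TSSs were 12418 higher and 10850 lower in nascent triptolide cells, in place of 1247 and 15132, and 10597 and 10040 in nascent DRB cells, in place of 1249 and 14785.

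In unbound DNA itself no member was called between 2 h and nascent DMSO cells or between either drug and DMSO at either time. By limma with adjustment the count was 0 in all 5 comparisons. At an unadjusted p under 0.05 there was 1 lower (Col4a1) in nascent DRB, and 1 higher (Gata4) and 1 lower (Lamb1) in 2 h triptolide cells, and limma-voom called 0 in each. Of all TSSs, 0% were called for 2 h over nascent DMSO, 1.53% lower and 0.709% higher in nascent triptolide, 0.637% lower and 0.267% higher in nascent DRB, 12.2% lower and 2.26% higher in 2 h triptolide, and 0.713% lower and 0.769% higher in 2 h DRB. The ratio of TSS windows to background windows also differed between groups. In EdU DNA it was 6.77 to 7.5 in 2 h triptolide, 11.7 to 14.5 in 2 h DRB and 15.6 to 19.2 in 2 h DMSO libraries, and 2.69 to 2.96 in nascent triptolide, 2.9 to 3.39 in nascent DRB and 4.87 to 5.04 in nascent DMSO libraries. In unbound DNA it was 12.9 to 14.3 in 2 h triptolide, 16.6 to 21.4 in 2 h DRB and 18.3 to 22.4 in 2 h DMSO libraries. It was 19.8 to 21.9 in nascent triptolide, 17.7 to 20.7 in nascent DRB and 21.9 to 23.2 in nascent DMSO libraries. It moved with the comparisons of time, of drug and of EdU over unbound DNA, and its part in the member differences was not tested.

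Around the TSSs, 68 steady-state peaks lay within 20 kb, of which 11 were at a member's own TSS, 2 at the TSS of 9030622O22Rik near Foxa2, 4 in enhancer regions of the deposited list and 51 elsewhere. Lamc1 had 14 peaks, Lama1 11, Gata6 and Lamb1 8 each, Sox7 and Foxa2 7 each, Sox17 and Col4a1 5 each, Gata4 3 and Dab2 none. The nascent list overlapped 10 of the 68 (14.7%, 95% Wilson interval 8.19 to 25%), the 30 min list 21 (30.9%), the 1 h list 27 (39.7%) and the 2 h list 33 (48.5%, 37.1 to 60.2%). Over all 166636 steady-state peaks the shares were 20.6%, 37.0%, 46.1% and 57.8%, so member peaks stood a little below the whole at each time, within the counting interval at each. With an overlap of at least 0.5 of each peak, the whole lay outside the interval at nascent (5.88%, 2.31 to 14.2%, against 14.4% of all) and 30 min (17.6%, 10.4 to 28.4%, against 30.7%). It lay inside at 1 h (30.9%, against 40.1%) and just outside at 2 h (41.2%, 30.3 to 53.0%, against 53.1%). Each list is 1 merged list of unknown depth, and intervals cover counting error only. S5P peaks overlapped 7 of the 68 (10.3%, 5.08 to 19.8%) and 4.4% of all.

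The lists separated genes whose TSS was a peak from the start and genes whose TSS became one. Gata6, Lama1, Lamb1, Lamc1 and Col4a1 had a peak within 1000 bp of the TSS in every list from nascent on. Foxa2 gained one in the 30 min list, and Sox17 and Sox7 in the 1 h list. Gata4 and Dab2 had none in any list at the tested TSS. The peak on the second Dab2 start was not overlapped by the nascent list, but was by the 30 min, 1 h and 2 h lists. Of all coding genes, 49.3% had a TSS peak in the nascent list and 72.6% in the steady-state list, against 5 and 8 of the 10 members. S5P peaks lay at the TSSs of Foxa2, Lamc1 and Col4a1, 3 of 10, beside 25.9% of coding genes.

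**Figure D3:**
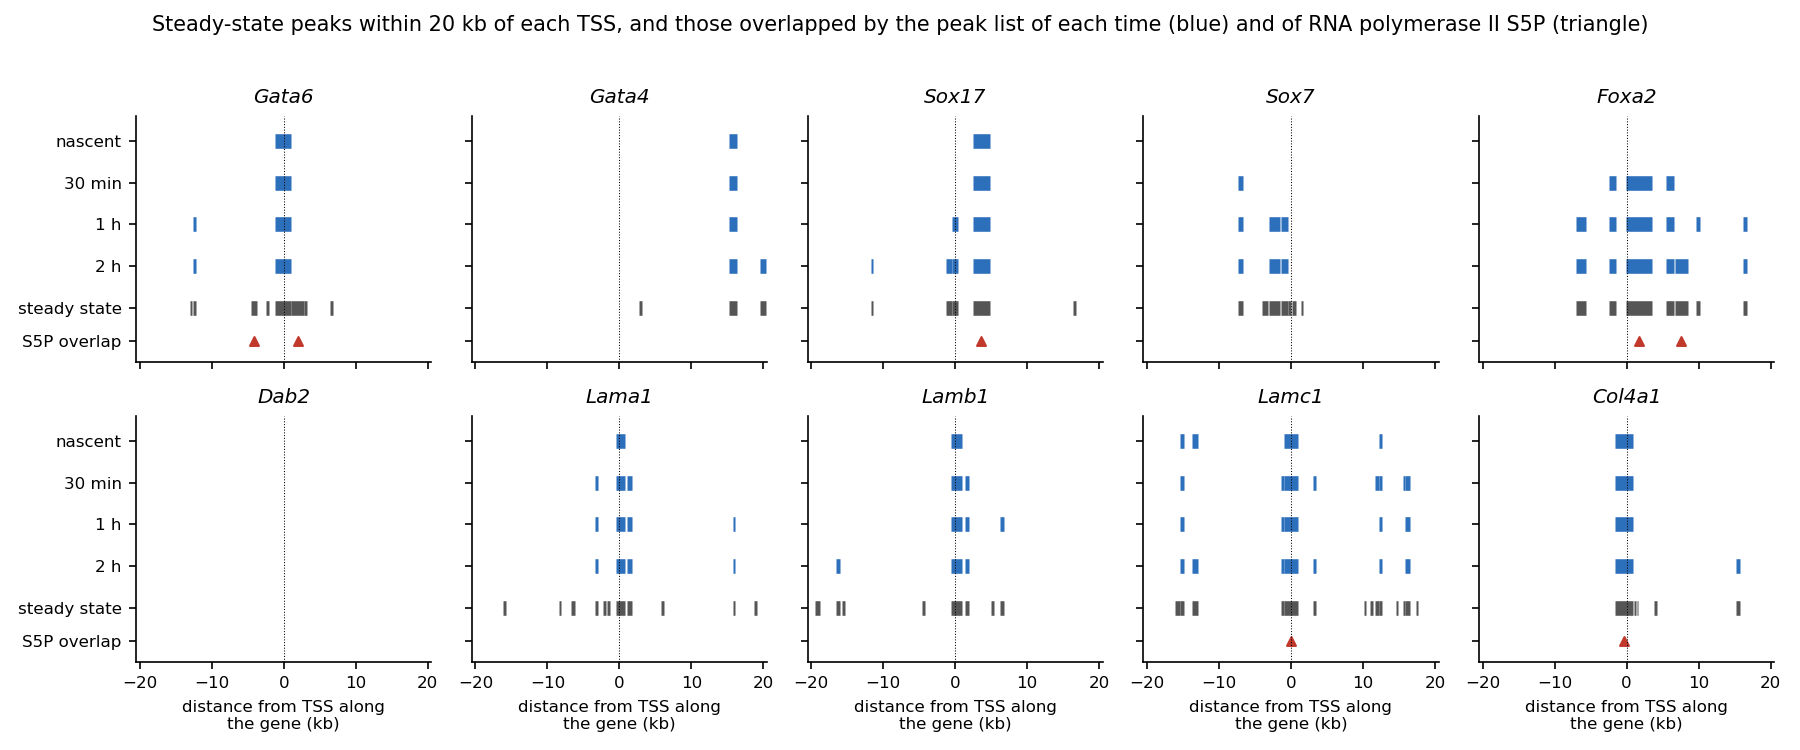
Steady-state peaks within 20 kb of each TSS (grey) by distance along the gene in kb, with those overlapped by at least 1 bp by the nascent, 30 min, 1 h and 2 h lists (blue, top to bottom) and by S5P peaks (triangles). The Foxa2 panel is empty in the nascent row and holds 6 overlapped peaks at 1 h and at 2 h. The TSS peaks of Gata6, Lama1, Lamb1, Lamc1 and Col4a1 are present in all blue rows.

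In the windows of these 68 peaks, 28 rose in EdU DNA between nascent and 2 h DMSO cells and none fell, against 32.5% of all peak windows higher and 0.41% lower. Some peaks away from the TSS rose near genes whose TSS did not pass, though most there did not. The counts were 2 of 8 at Gata6, 3 of 11 at Lama1, 1 of 7 at Sox7 and 1 of 3 at Gata4, beside the 32.5% of all peak windows. The strongest at 3 of these genes follow. The Gata6 peak 12.4 kb upstream had 3.68, 6.47 and 5.25 RPM at 2 h and 1.73, 0.505 and 0.529 RPM in nascent DNA (1.71 ± 0.36, limma adjusted p = 4e-05). The Lama1 peak 3.18 kb upstream had 9.5, 4.32 and 3.6 RPM at 2 h and 1.15, 1.51 and 0.529 RPM in nascent DNA (1.65 ± 0.36, adjusted p = 8.6e-05). In both the groups did not overlap, and both calls held under every alternative and without any 1 library. The Sox7 peak 7.0 kb upstream had 4.29, 3.6 and 5.25 RPM at 2 h and 1.73, 0 and 2.38 RPM in nascent DNA (1.35 ± 0.37, adjusted p = 0.0018). Its call was lost without nascent DMSO replicate 2 (0.81, adjusted p = 0.11).

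The largest rise within 20 kb was at a Foxa2 peak 6.32 kb upstream, with 5.52, 6.83 and 6.36 RPM at 2 h and 1.15, 1.01 and 0.529 RPM in nascent DNA (1.94 ± 0.35, limma adjusted p = 8.4e-07). It entered the lists at 1 h, and 5 of the 7 Foxa2 peaks rose. The peak 3.65 kb downstream of the Sox17 TSS, within the gene, was in every list and overlapped S5P. It had 8.89, 10.4 and 10.5 RPM at 2 h and 2.88, 2.52 and 3.17 RPM in nascent DNA (1.5 ± 0.31, adjusted p = 2.6e-05). Both sets of libraries were tight and well apart. At Lamc1, 7 of 14 peaks rose, the strongest being enhancer peaks 15.1 kb upstream (7.05, 5.75 and 8.3 RPM at 2 h, 1.15, 2.02 and 1.59 RPM in nascent DNA, 1.64 ± 0.34) and 16.2 kb downstream (9.2, 12.2 and 4.98 RPM at 2 h, 1.73, 2.02 and 1.85 RPM in nascent DNA, 1.70 ± 0.33). Centring gave 9 peaks higher and 1 lower, with 18871 of all peak windows higher and 3446 lower in place of 54111 and 684, and scaling to background gave 52. Without nascent DMSO replicate 2 the count was 18.

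**Figure D4:**
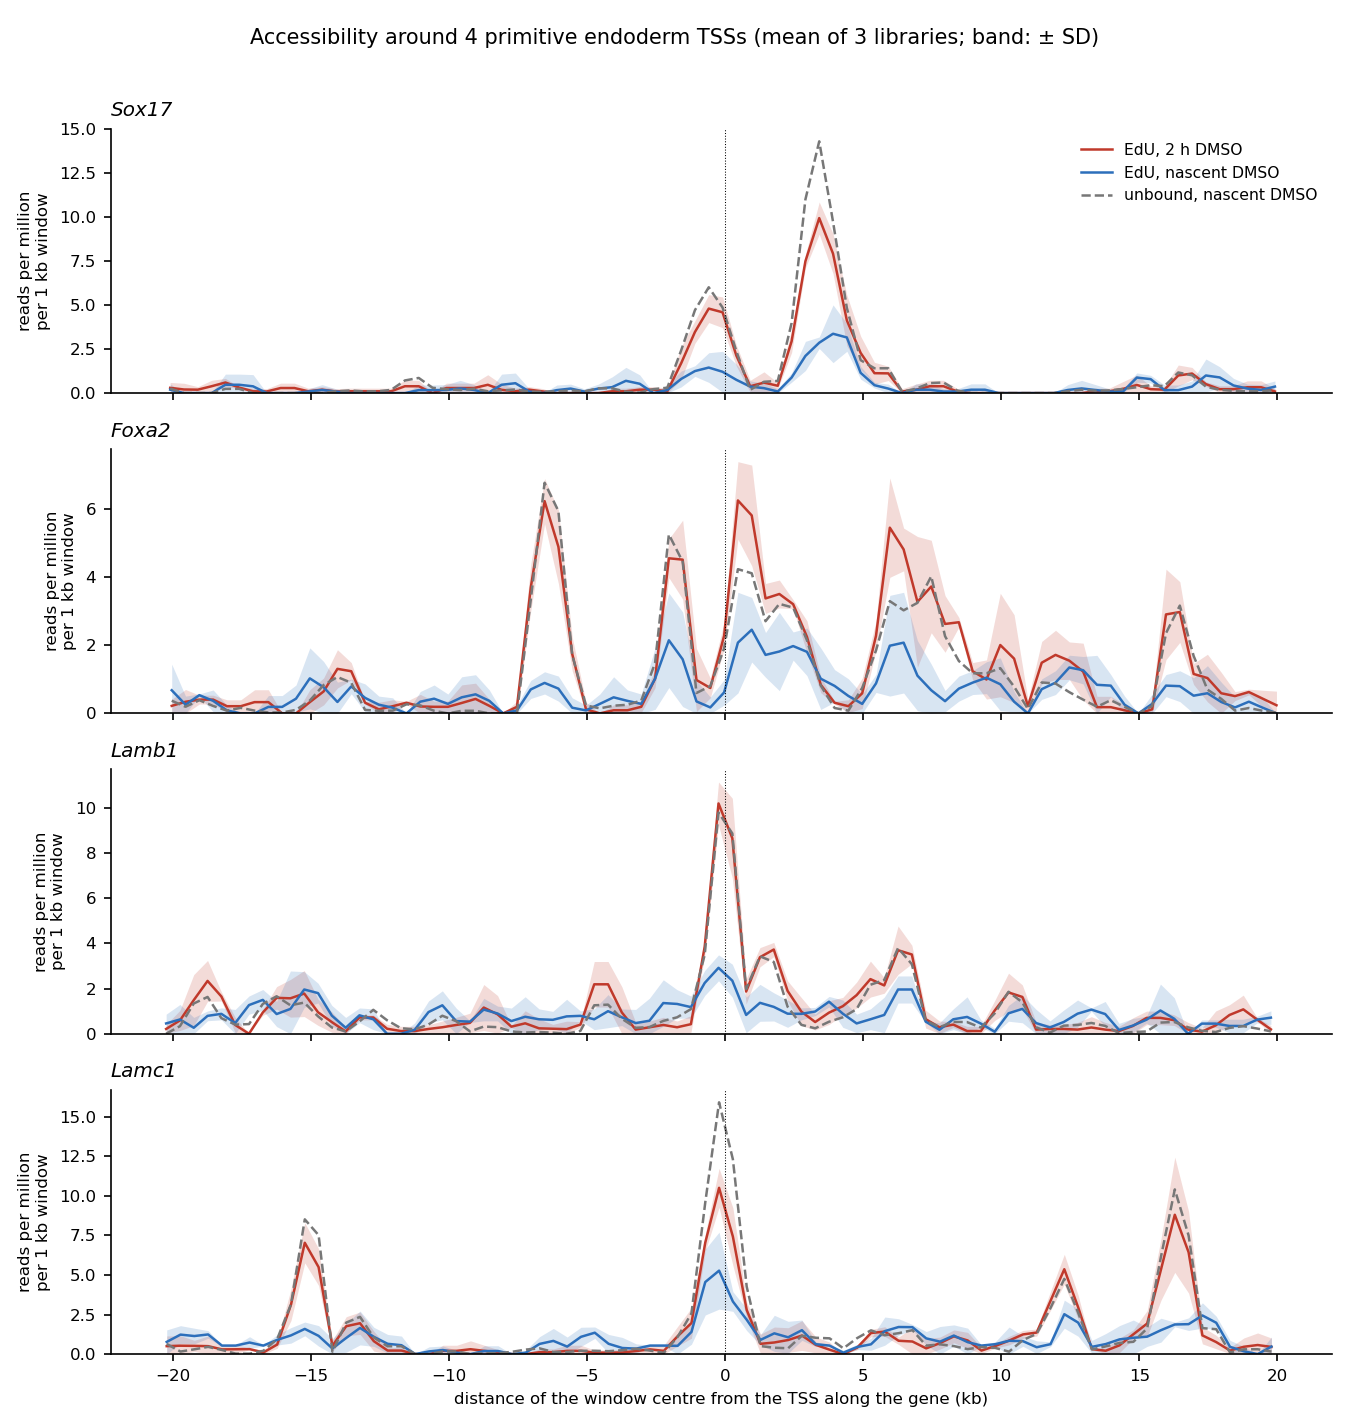
Mean RPM of 1 kb windows by distance of the window centre from the TSS in kb for Sox17, Foxa2, Lamb1 and Lamc1, in EdU DNA at 2 h (red) and nascent (blue) in DMSO cells with bands of ± SD (n = 3), and in nascent DMSO unbound DNA (dashed grey, mean). At Sox17 the 2 h peak 3.65 kb downstream is taller than the one at the TSS, and at all 4 genes the blue line stays below the red and the grey one at the TSS.

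Transcription inhibitors were compared with DMSO at the same time; these comparisons share their DMSO libraries with each other and with the comparison of 2 h and nascent DNA. In nascent DNA, 1 member, Lama1, fell with triptolide, where 11.6% of all TSSs were lower and 0.45% higher. Lama1 had 2.09, 0.905 and 1.8 RPM after triptolide and 4.61, 4.54 and 4.5 RPM after DMSO (-1.13 ± 0.30, limma adjusted p = 0.006). The groups were well apart, but the call was lost without nascent triptolide replicate 2 (-0.92, adjusted p = 0.066) and after centring (-0.90, adjusted p = 0.062). Gata6 had 1.04, 1.81 and 0.72 RPM after triptolide and 2.31, 3.53 and 2.12 RPM after DMSO (-0.75 ± 0.33, adjusted p = 0.13), which did not pass although the groups did not overlap. Centring gave 358 TSSs higher and 1200 lower with triptolide in place of 134 and 3446, and 117 higher and 289 lower with DRB in place of 84 and 1003. In nascent DRB cells no member was called by limma, with 1 lower (Lamc1) before adjustment at p under 0.05 and 0 with limma-voom, beside 3.37% of TSSs lower and 0.282% higher. Without nascent DRB replicate 3 the count was 1. Lamc1 had 2.36, 1.54 and 3.33 RPM after DRB and 8.07, 4.04 and 3.7 RPM after DMSO (-0.85 ± 0.30, adjusted p = 0.082).

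At 2 h, 4 of the 10 fell with triptolide, Lamb1, Col4a1, Lamc1 and Sox7, and none rose, where 28.6% of all TSSs were lower and 2.72% higher. The median was -0.60 over the members and -0.29 over all, and centring gave 2449 TSSs higher and 4627 lower in place of 812 and 8516. Lamb1 had 5.76, 2.17 and 1.86 RPM after triptolide and 9.2, 10.4 and 11.1 RPM after DMSO (-1.51 ± 0.32, limma adjusted p = 7.7e-05). Col4a1 had 1.73, 1.24 and 1.06 RPM after triptolide and 6.13, 4.68 and 4.15 RPM after DMSO (-1.35 ± 0.34, adjusted p = 0.00089). These 2 calls held under all 9 alternatives and without any 1 library. Lamc1 had 5.18, 5.28 and 5.05 RPM after triptolide and 12, 9.71 and 9.96 RPM after DMSO (-0.90 ± 0.30, adjusted p = 0.012). Its triptolide libraries were nearly equal and far below DMSO, yet the call was lost without 2 h DMSO replicate 1 (-0.81, adjusted p = 0.065), after centring (-0.54, 0.17) and over 5 kb (-0.32, 0.16). Sox7 had 0.288, 0 and 1.6 RPM after triptolide and 2.45, 2.52 and 1.38 RPM after DMSO (-1.04 ± 0.39, adjusted p = 0.029). Here the groups overlapped, and the call was lost without 2 h DMSO replicate 1 (0.093) or 2 (0.094) and without 2 h triptolide replicate 1 (0.11) or 2 (0.22). It was also lost with log2(RPM + 0.25) (0.068), without a filter (0.11) and after centring (-0.68, 0.19).

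Lama1 and Gata6 did not pass with triptolide at 2 h. Lama1 had 4.32, 4.97 and 7.18 RPM after triptolide and 5.21, 6.83 and 4.7 RPM after DMSO (-0.03 ± 0.30). Gata6 had 3.74, 3.1 and 3.72 RPM after triptolide and 2.76, 5.4 and 2.77 RPM after DMSO (0.01 ± 0.33). Both genes' groups overlapped. Sox17, with 3.17, 1.86 and 1.33 RPM after triptolide and 4.9, 3.6 and 5.25 RPM after DMSO, had -0.87 ± 0.36 at an adjusted p of 0.05, just over the threshold. It passed over 5 kb (-0.65, adjusted p = 0.007), with limma-voom (0.025) and scaled to background (0.0044). Within triptolide cells, Lama1 had 4.32, 4.97 and 7.18 RPM at 2 h and 2.09, 0.905 and 1.8 RPM in nascent DNA (1.33 ± 0.30, adjusted p = 0.0007), and Gata6 also rose (1.07 ± 0.33, adjusted p = 0.016), the 2 members called where 14.1% of TSSs were. The Gata6 call was lost without nascent triptolide replicate 1 (0.052) or 3 (0.09) and without 2 h triptolide replicate 1 (0.059) or 3 (0.062). The change over the chase was not called different between triptolide and DMSO for any member by limma: 0 were called, 1 higher and 1 lower had an unadjusted p under 0.05 and limma-voom called 0, beside 0.0302% of TSSs higher and 0.419% lower. The difference of differences was 1.09 ± 0.43 at Lama1 (adjusted p = 0.26) and -0.95 ± 0.46 at Lamb1 (0.42).

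DRB at 2 h gave no member call by limma, with 2 lower (Lamb1 and Sox7) before adjustment at p under 0.05 and 0 with limma-voom, where 0.621% of TSSs were lower and 0.201% higher. Lamb1 had 3.93, 6.34 and 5.8 RPM after DRB and 9.2, 10.4 and 11.1 RPM after DMSO (-0.84 ± 0.32, adjusted p = 0.2). The groups were apart without the difference passing. Within DRB cells, 6 members rose over the chase and none fell, where 35.1% of TSSs were higher and 1.97% lower. They were Lamc1 (1.67 ± 0.30, limma adjusted p = 1.5e-06), Lamb1 (1.28 ± 0.32), Sox17 (1.18 ± 0.36), Foxa2 (0.97 ± 0.39), Col4a1 (0.96 ± 0.34) and Gata6 (0.90 ± 0.33). Lamc1 had 9.18, 7.46 and 12.8 RPM at 2 h and 2.36, 1.54 and 3.33 RPM in nascent DNA of DRB cells. Its groups were far apart. The Gata6 call was lost without nascent DRB replicate 1 (0.11) or 3 (0.06), the Col4a1 call without nascent DRB replicate 2 (0.14) or 2 h DRB replicate 3 (0.09), and both without 2 h DRB replicate 1 (0.15 and 0.056). The Foxa2 call was lost without any library but nascent DRB replicate 3 (0.073 to 0.26). Without 2 h DRB replicate 1 the count was 3, without nascent DRB replicate 3 or 2 h DRB replicate 2 Gata4 was also called lower, and limma-voom called 3. Centring gave 5950 TSSs higher and 4455 lower in place of 10463 and 586 over the DRB chase, 1437 and 727 in place of 4204 and 116 over the triptolide chase, and 74 and 54 in place of 60 and 185 for DRB against DMSO at 2 h. No member's change over the chase was called different between DRB and DMSO by limma (0 called, 0 before adjustment at p under 0.05, 0 with limma-voom), beside 0.0134% of TSSs higher and 0.00671% lower.

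Among the 68 peaks, 14 fell and 2 rose with triptolide at 2 h, beside 21.4% and 4.03% of all peak windows. The count of lower peaks was 9 without 2 h DMSO replicate 1 or 2 and 8 without 2 h triptolide replicate 2. After centring 4 fell, and of all peak windows 14533 were higher and 13073 lower in place of 6709 and 35697. The deepest loss was at the Gata4 peak 15.7 kb downstream of the TSS, within the gene (chr14:63255426-63256475), which was in every list although the Gata4 TSS was in none. It had 0.288, 1.86 and 0.266 RPM after triptolide and 4.9, 4.68 and 5.25 RPM after DMSO at 2 h (-1.83 ± 0.36, limma adjusted p = 2.2e-05). In nascent DNA it had 0.695, 0.453 and 0.18 RPM after triptolide and 2.88, 3.03 and 1.59 RPM after DMSO (-1.27 ± 0.36, adjusted p = 0.03). The groups were apart at both times, and in unbound DNA the same window had 6.45, 4.28 and 4.94 RPM after triptolide and 6.48, 6.6 and 6.58 RPM after DMSO at 2 h. The 2 h call held under every alternative, but the nascent one was lost without nascent DMSO replicate 1 (0.1) or 2 (0.13), without nascent triptolide replicate 2 (0.091) or 3 (0.14) and after centring (0.16). The Col4a1 peak 4.05 kb downstream had 0.576, 0.31 and 0.532 RPM after triptolide and 3.37, 2.52 and 2.77 RPM after DMSO at 2 h (-1.40 ± 0.37, adjusted p = 0.0019).

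Both peaks that rose with triptolide lay in Lamc1. The one 3.25 kb downstream had 2.3, 3.1 and 2.39 RPM after triptolide and 0.92, 0 and 0.83 RPM after DMSO at 2 h (1.24 ± 0.37, limma adjusted p = 0.007). Its groups did not overlap, and the call was lost without 2 h DMSO replicate 2 (0.94, adjusted p = 0.1). The one 17.5 kb downstream had 2.59, 4.35 and 3.72 RPM after triptolide and 0.92, 1.8 and 0.83 RPM after DMSO (1.07 ± 0.36, adjusted p = 0.017), and that call was lost without 2 h DMSO replicate 1 (0.065) or 3 (0.071) or 2 h triptolide replicate 2 (0.085) or 3 (0.058). The Lamc1 TSS fell in the same comparison. In nascent DNA 2 peak windows fell with triptolide, the Gata4 peak and the Lama1 TSS peak, beside 2.23% of all. The call at the Lama1 TSS peak was lost without any nascent DMSO library (0.061 to 0.067) or nascent triptolide replicate 2 (0.2). With DRB none was called by limma, with 2 higher and 5 lower before adjustment at p under 0.05 and 0 with limma-voom, beside 0.0864% higher and 1.09% lower. At 2 h 1 fell with DRB, a Sox7 peak 3.65 kb upstream (-1.16 ± 0.36, adjusted p = 0.05, under the threshold before rounding), beside 1.57%, and leaving out any 1 library ended that call.

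The spike-in experiment, tested alone because its values were scaled apart, gave 6 of 10 members higher at 2 h than in nascent DNA and none lower, where 30.1% of 30618 TSS regions were higher and 1.35% lower. Values are of 5 kb regions on the deposited scale, on which 1 read is worth 1.24 and 1.32 in the 2 h libraries and 1.09 and 2.28 in the nascent ones. Gata6 had 135 and 127 at 2 h and 26.2 and 27.3 in nascent DNA (2.25 ± 0.52, limma adjusted p = 0.0005). Sox17 had 90.7 and 63.4 at 2 h and 10.9 and 18.2 in nascent DNA (2.34 ± 0.55, adjusted p = 0.00063). Lama1 had 140 and 110 at 2 h and 35 and 25 in nascent DNA (2.03 ± 0.52, adjusted p = 0.0016). Gata6 and Lama1 thus passed here over 5 kb and not in the 1 kb window of the DMSO cells. Lamb1 (144 and 156 at 2 h, 26.2 and 56.9 nascent, 1.93 ± 0.52), Foxa2 (142 and 147 at 2 h, 40.4 and 54.6 nascent, 1.60 ± 0.52) and Lamc1 (180 and 190 at 2 h, 54.6 and 91.1 nascent, 1.38 ± 0.53) also rose. Col4a1 had 107 and 103 at 2 h and 31.7 and 63.7 in nascent DNA (1.2 ± 0.52, adjusted p = 0.06).

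Sox7, at 49.7 and 58.1 at 2 h and 22.9 and 45.5 in nascent DNA, did not pass (0.71 ± 0.53). Gata4, at 12.4 and 13.2 at 2 h and 6.55 and 31.9 in nascent DNA, and Dab2, at 4.97 and 5.29 at 2 h and 4.37 and 9.11 in nascent DNA, overlapped and rested on 4 to 14 reads. The count rests on few libraries: without either 2 h library it was 0, with differences of similar size (Gata6 2.2 and 2.30), with nascent replicate 2 left out it was 8, and without nascent replicate 1 it was 7 with Gata4 lower. A lone library is there assumed to vary like the other group. Without a filter on low values no member was called, with the same differences (limma adjusted p 0.083 to 0.1 for the 6). With the replicate number as a block, 1 member was called higher. After centring, the 6 calls held, with Gata6 at 1.43 and Lamc1 at 0.56, and the split of all regions was 8228 higher and 6151 lower in place of 9223 and 414. The enhancer region 5.24 kb upstream of Sox7 had 85.8 and 67.4 at 2 h and 10.9 and 25 in nascent DNA.

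**Figure D5:**
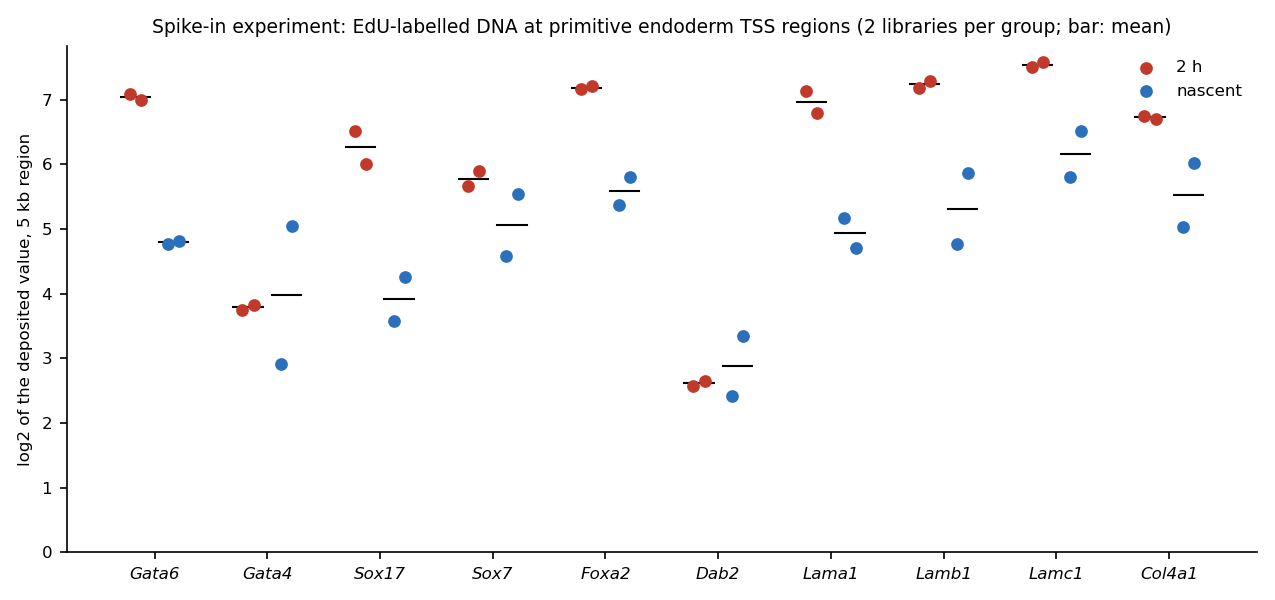
log2 of the deposited value of the 5 kb TSS region of each gene in the spike-in experiment, at 2 h (red, left of each pair) and nascent (blue), with 2 libraries per group as points and their mean as a bar. Gata6 shows the widest gap relative to the spread of its libraries, at 7.09 and 7.0 at 2 h and 4.77 and 4.82 in nascent DNA, while Gata4 and Dab2 overlap.

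Other gene lists of the same biology were counted in the 2 h over nascent DMSO comparison, beside the 31.2% of all TSSs that were higher. Of 30 other primitive and visceral endoderm genes 7 rose and none fell. The 2 largest were Ctsl, a lysosomal protease, with 7.36, 7.91 and 8.85 RPM at 2 h and 2.31, 1.01 and 1.85 RPM in nascent DNA (1.76, limma adjusted p = 2.2e-05), and Dkk1, a secreted WNT inhibitor, with 5.21, 4.68 and 6.91 RPM at 2 h and 0, 1.51 and 2.65 RPM in nascent DNA (1.64, adjusted p = 5e-05). Of 20 other basement membrane genes 12 rose, led by Nid1 (1.78), a laminin-binding linker, and Sparc (1.54), a collagen-binding glycoprotein. Of 24 FGF and ERK pathway genes 13 rose, led by Spry4 (1.96), a feedback inhibitor, and Etv5 (1.77), an ETS factor downstream of ERK. Of 19 epiblast and stem cell genes 15 rose, with Klf5 (1.64) and Zfp42 (1.57) first. Counts were 4 of 11 for trophectoderm, led by Tead4 (1.56), 3 higher and 1 lower (S100a4, -1.15) of 12 for fibroblasts, led by Vim (2.06), and 1 of 7 for 2-cell-like genes, Zscan4d (0.67), whose reads cannot be told apart with certainty from those of its close copies.

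With 2 h triptolide against 2 h DMSO, 3 of the 30 other endoderm genes fell and 2 rose, and 10 of the 20 basement membrane, 17 of the 24 FGF and ERK, 11 of the 19 stem cell, 2 of the 11 trophectoderm, 1 of the 12 fibroblast and none of the 7 genes of the 2-cell-like list fell, beside 28.6% of all TSSs lower and 2.72% higher. In nascent triptolide cells, where 11.6% of all TSSs were lower, 5 basement membrane genes fell, among them P4ha1 and P4hb (both -1.03), which encode subunits of the collagen prolyl hydroxylase. The FGF and ERK list lost 5, led by Hras (-1.79) and Ptpn11 (-1.23), which encode a RAS protein and the phosphatase SHP2, and the stem cell list 1, Sox2 (-1.04). The other lists had none by limma there. In nascent DRB cells, where 3.37% of all TSSs were lower and 0.282% higher, 1 basement membrane, 1 FGF and ERK and 2 stem cell genes fell and 1 fibroblast gene rose.

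Over the 12 group means of the inhibitor experiment 8 of the 10 members had a correlation of 0.79 or more with the others, and Dab2 and Gata4 did not. The correlation of each gene's mean log2 level with the mean of the other members was 0.97 at Lamc1, 0.96 at Lamb1, 0.95 at Col4a1, 0.90 at Lama1 and Sox17, 0.89 at Gata6, 0.86 at Sox7 and 0.79 at Foxa2. It was 0.52 at Dab2 and -0.41 at Gata4, whose windows held few reads. The share of all searched genes that reach 0.79 is not given here, so the count is not a trait of the members. The genes most like the member mean, of 17283 searched, were Wif1 (0.998), Zfp938 (0.997), Clock, Pinx1 and Tor1aip1 (each 0.996). These are descriptions over 12 points that share libraries and the difference in contrast between EdU and unbound DNA.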

How the data were processed

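Read processing is known only in part: per the submitters' processing notes, Trim Galore 0.4.2, Bowtie2 2.2.6.2 and build mm10 were used, with no peak caller named. The deposited inhibitor table holds log2(RPM + 1) in 1 kb windows every 500 bp, per the file headers, for 36 libraries. The deposited spike-in tables hold log2(value + 1) in 5 kb regions, and no label says how the S2 reads entered them. Undoing the log2 gave whole read numbers for 100% of values within 0.1 reads, so read depth was known. The deposited peak lists give positions only, 1 list for all replicates of a group. No per-sample column was left unused, and the EdU ChIP samples for S5P were not analysed here.

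Each TSS region was read in the window nearest its centre, and a gene was paired with the TSS within 1000 bp of its RefSeq start, or within 2000 bp where none was closer, taking the most open of several. Windows above 0 in at least 3 libraries (2 in the spike-in) were tested with limma 3.58.1 in R 4.3.3 with an intensity trend, on the log2 values as deposited, with groups as the only terms and Benjamini-Hochberg adjustment over all features. Fits covered all 18 EdU libraries, all 18 unbound libraries, or both for EdU over unbound. Peaks were read in the window nearest their centre, and an overlap of 1 bp counted as shared. Sequences were matched by symbol, with Python 3.11.15, pandas 2.3.3, numpy 2.4.6 and scipy 1.17.1. The 2 h over nascent DMSO fits were run on simulated independent counts, with changes placed only in windows that were not low. That run does not cover changes in low windows or scaling differences between groups, and nothing is concluded from it here.

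All 10 members are named. Of other lists, the 2 largest called changes in each direction in 2 h over nascent DMSO and in nascent triptolide over nascent DMSO are named, and the 5 genes most like the member mean. Members and lists were chosen with earlier results of these data known. Alternatives changed the pseudocount, the filter, the scaling, the window, the test (limma-voom on recovered reads), the libraries in the fit and the replicate number as a block, and left out each library in turn.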

Additional observations from a re-analysis of the deposited data

How the results depend on the processing

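Of 48 called member results, 21 kept their call under every alternative and without any 1 library. With log2(RPM + 0.25), 3 members were higher in 2 h over nascent DMSO, 4 peaks fell at 2 h with triptolide and 0 with DRB. Centring each library on its median TSS gave 2 members higher in 2 h over nascent DMSO, 0 lower in nascent triptolide, 2 lower in 2 h triptolide, 1 higher over the triptolide chase, and 2 higher and 2 lower over the DRB chase. For EdU over unbound, centring gave 1 higher and 4 lower in nascent DMSO, 2 higher in nascent triptolide, and 2 higher and 4 lower in nascent DRB cells. Dab2 in nascent DRB cells then had a difference of 0.53 in place of -0.07. Among peaks, centring gave 9 higher and 1 lower in 2 h over nascent DMSO, 0 lower in nascent triptolide, 4 lower in 2 h triptolide and 0 in 2 h DRB. Scaling to background windows gave 8 higher in 2 h over nascent DMSO, 1 lower in nascent DRB, 1 lower in 2 h DRB, 5 higher over the triptolide chase, 1 lower in unbound nascent DRB and 2 lower in unbound 2 h triptolide, and peak counts of 52 higher in 2 h over nascent DMSO, 25 lower in 2 h triptolide and 3 lower in 2 h DRB. The 5 kb mean gave 2 lower in nascent triptolide, 4 higher over the triptolide chase and 1 higher each in unbound nascent triptolide, 2 h triptolide and 2 h DRB. With only the groups compared, 1 TSS and 2 peaks were lower in 2 h DRB. Limma-voom gave 3 higher over the DRB chase and 1 peak lower in nascent triptolide. A mean RPM of at least 1 gave 1 lower in unbound nascent DRB, 1 lower in unbound 2 h triptolide and 0 peaks in 2 h DRB. Without a filter the spike-in gave 0. With 0.5 of each peak required to overlap, shares were 5.88% for nascent, 17.6% for 30 min and 2.94% for S5P, beside 14.4%, 30.7% and 1.05% of all peaks. Peaks over each whole gene and 20 kb beyond it, chosen after seeing the data, gave shares close to the main ones. The cause was not tested for any of these.

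Leaving out 1 library in turn gave 2 to 4 members higher in 2 h over nascent DMSO, 0 to 1 lower in nascent triptolide, 0 to 1 in nascent DRB, 2 to 4 in 2 h triptolide, 1 to 3 higher over the triptolide chase, 3 to 5 higher and 0 to 1 lower over the DRB chase, and 0 to 1 lower in unbound 2 h triptolide. EdU over unbound gave 6 to 8 lower in nascent DMSO and 7 to 8 in nascent triptolide and DRB. Peak counts were 18 to 24 higher in 2 h over nascent DMSO, 0 to 2 lower in nascent triptolide, 1 to 2 higher and 8 to 12 lower in 2 h triptolide and 0 in 2 h DRB. The spike-in gave 0 to 8 higher and 0 to 1 lower.

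With the replicate number as a block, the spike-in gave 1 member higher in place of 6, and Sox17 passed in 2 h triptolide (-0.87, limma adjusted p = 0.047). Other counts stayed within 1.5 times of those without the block. Correlations between same-numbered libraries ran from -0.023 to 0.073 in EdU DNA, from -0.04 to 0.20 in unbound DNA and from 0.0051 to 0.15 between EdU and unbound DNA. In unbound DNA 21 of 45 such pairs exceeded 0.1, with a median of 0.094 beside -0.047 for other numbers. The main fits did not take the numbers as pairs, and low correlations do not show that pairing is absent. Depth limits Gata4 and Dab2 most, at 0 to 3 reads in each EdU library.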
